A study of Mus musculus with 12 samples.

Results

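Condensin and the SMC5/6 complex are the relatives of cohesin, and this report follows 10 of their genes in the mouse hypothalamus: Smc2, Smc4, Ncapd2, Ncapd3 and Ncaph2 of condensin, Smc5, Smc6, Nsmce1 and Nsmce2 of the SMC5/6 complex, and Smchd1, a more distant relative. They were chosen by symbol, and all 10 were found among the 32494 genes of the expression table. RNA was sequenced from the hypothalamus of 12 male mice, 5 weeks after tamoxifen, with 8 weeks given as an age. All 12 mice carried floxed Smc3 and received tamoxifen. The 7 mice labelled WT lacked Camk2a-cre/ERT2 and the 5 labelled cKO carried it. This transgene makes a recombinase, active only with tamoxifen, under a promoter used in excitatory forebrain neurons, so Smc3 was to be lost from part of the neurons and not from glia. Titles of both groups also carry the word control. The study asked what Smc3 does in adult forebrain neurons, with body weight as the outcome named in its title.

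SMC proteins are long coiled-coil ATPases that work in pairs and are closed into a ring by further subunits. The pair of Smc1a and Smc3 makes cohesin, which folds DNA into loops and holds sister chromatids. The pair of Smc2 and Smc4 makes condensin, which compacts chromosomes for cell division. It comes in a form with Ncapd2, Ncapg and Ncaph (condensin I) and a form with Ncapd3, Ncapg2 and Ncaph2 (condensin II), and the second form stays in the nucleus throughout the cell cycle. The pair of Smc5 and Smc6, with its Nsmce subunits, acts in DNA repair and in the silencing of circular viral DNA. Smchd1 has an SMC hinge but a different ATPase, and it helps to silence the inactive X chromosome and some imprinted genes. Most cells of the adult hypothalamus do not divide.

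The condensin genes are well known as cell cycle genes, whose promoters often carry CCAAT boxes, a cell cycle gene homology region (CHR) and E2F sites. The 250 bases before the start of transcription are shown for Ncapd2, Ncapd3 and Smc6, the members with the largest differences between the groups by p-value, and for Smc2, the subunit that both condensins share. They come from RefSeq on GRCm38.p6, 5′ to 3′ on the strand of the gene, at chr6:125191587-125191836 (minus strand), chr9:27029915-27030164 (plus strand), chr12:11265636-11265885 (plus strand) and chr4:52438971-52439220 (plus strand). Capitals mark the CCAAT box (CCAAT), the CHR (TTTGAA) and 2 forms of the E2F site (TTTCGCGC and TTTGGCGC) on either strand.
Ncapd2: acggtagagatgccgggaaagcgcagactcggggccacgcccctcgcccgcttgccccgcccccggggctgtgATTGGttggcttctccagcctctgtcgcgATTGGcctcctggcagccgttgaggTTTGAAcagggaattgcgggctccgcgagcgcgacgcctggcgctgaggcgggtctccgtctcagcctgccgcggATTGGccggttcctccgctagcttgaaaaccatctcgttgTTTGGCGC
Ncapd3: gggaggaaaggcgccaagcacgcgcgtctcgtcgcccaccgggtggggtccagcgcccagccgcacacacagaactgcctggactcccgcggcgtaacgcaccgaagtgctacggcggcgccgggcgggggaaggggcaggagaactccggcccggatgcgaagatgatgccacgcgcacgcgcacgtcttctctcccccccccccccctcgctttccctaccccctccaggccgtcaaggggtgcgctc
Smc6: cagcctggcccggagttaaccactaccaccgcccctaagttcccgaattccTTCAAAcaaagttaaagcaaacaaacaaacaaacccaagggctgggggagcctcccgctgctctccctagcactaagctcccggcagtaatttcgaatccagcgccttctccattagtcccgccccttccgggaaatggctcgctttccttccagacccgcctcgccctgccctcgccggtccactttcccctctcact
Smc2: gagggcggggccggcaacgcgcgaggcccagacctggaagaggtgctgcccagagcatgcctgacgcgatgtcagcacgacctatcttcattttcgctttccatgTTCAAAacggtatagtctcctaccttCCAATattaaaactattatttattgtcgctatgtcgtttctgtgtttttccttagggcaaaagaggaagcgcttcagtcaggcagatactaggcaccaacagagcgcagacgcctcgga
Ncapd2 held 3 CCAAT boxes, 1 CHR and 1 E2F site, and Smc2 held 1 CCAAT box and 1 CHR. Smc6 held 1 CHR and Ncapd3 none of these letters. Over 27025 promoter windows of the same length, 34.5% held a CCAAT box, 16.3% a CHR, 0.255% the first E2F form and 0.437% the other. Both a CCAAT box and a CHR were in 5.73%, and at least 3 CCAAT boxes in 2.98%. The windows of Ncaph2, Smc5, Nsmce1 and Smchd1 held none of the letters searched. Other forms of the CHR and of the E2F site were not searched, so these windows may hold them. Smc4 and Nsmce2 were not in the promoter table. A match of letters is a description and not a measured binding site.

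Sequencing depth ran from 17.1 M to 24.0 M reads, apart from WT 1 with 68.7 M, and each member rested on at least 137 reads in every library. Levels are the authors' normalized CPM, read counts scaled to the size of each library, and group values are means with the SD over 7 mice labelled WT and 5 labelled cKO. The targeted gene, Smc3, went against the labels. It averaged 81.6 CPM (SD 3.14) under the label WT and 131 CPM (SD 10.3) under the label cKO, with no overlap, and limma put the log2 difference at 0.67 (SE 0.05; adjusted p 3.06e-05). The part of the gene that the floxed allele removes was not examined here, so gene-level counts do not show whether a shortened transcript is included. Whether the labels or columns of the groups were exchanged was not tested either, and an exchange would turn every direction given here. Every direction below is one between libraries labelled cKO and libraries labelled WT, not between mice shown to have lost Smc3. Differences were tested with limma on log2(CPM + 1) over 15359 genes that averaged 1 CPM or more, Benjamini-Hochberg adjusted over all of them, and are called past the threshold at an adjusted p under 0.05. The labels name mice by number and say no more of how they relate, so p-values measure the spread between these 12 samples. In whole tissue, fewer cells of a type and less RNA per cell cannot be told apart.

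Neighbouring tissue and other cell types were checked with marker lists. Of 10 thalamic neuron markers, 3 were lower by limma under the label cKO (Prkcd, Rgs16 and Plekhg1), 7 were not past the threshold, and none was at 0, where 7.60% of all tested genes were lower. edgeR and DESeq2 each called 4 of the 10. Their summed levels, 600.3 to 1264 CPM in WT and 358 to 739 CPM in cKO, overlapped. Of 12 hypothalamic neuron markers 1 was higher, Sim1, and the sums overlapped (76.7 to 699.6 CPM in WT and 171 to 769 CPM in cKO). Of 3 markers of oligodendrocyte precursors, the main dividing cells of the adult brain, Gpr17 and Pdgfra were higher, and the sums of 154 to 174 CPM in WT and 175 to 209.9 CPM in cKO did not overlap. Of these 3, edgeR called 1 and DESeq2 2, and by limma 6.54% of all tested genes were higher. In the other 9 lists, 45 genes were tested and 0 were past the limma threshold. Of the 45, 3 had an unadjusted limma p under 0.05, edgeR called 0 and DESeq2 1. All tested genes gave 14.1% past the limma threshold, 31.1% unadjusted, 13.7% by edgeR and 17.9% by DESeq2.

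Of the 10 members, Smc6 was higher, Ncapd3 was lower and the other 8 were not past the limma threshold. Among all tested genes 14.1% were past it, 6.54% higher and 7.60% lower, and 2 of 10 is near that background. The background rests in part on WT 1, the deepest library: without it 1158 of 15328 genes and 2 of 10 members were past the threshold. Its balance of directions moved with the scaling, from 1004 higher and 1168 lower to 1377 and 1054 after median centring and 1318 and 862 after correction for GC content and length. The median log2 fold change of the members was 0.02, against 0.01 over all tested genes, and the median absolute value was 0.09 against 0.10. For the 8 members that did not pass, the 95% intervals of the change in CPM + 1 all lay between -18.3% and 21.3%. An unadjusted limma p under 0.05 was found for 4 members, against 31.1% of tested genes. Ranges of the groups did not overlap for 1 member, Smc6, against 6.73% of tested genes (3.52% with cKO higher and 3.20% with cKO lower). edgeR called 2 members and DESeq2 4, against 13.7% and 17.9% of genes. In the authors' deposited table, where 4.94% of 32494 genes had a false discovery rate (FDR) under 0.05, 1 member did, Ncapd3.

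**Figure D1:**
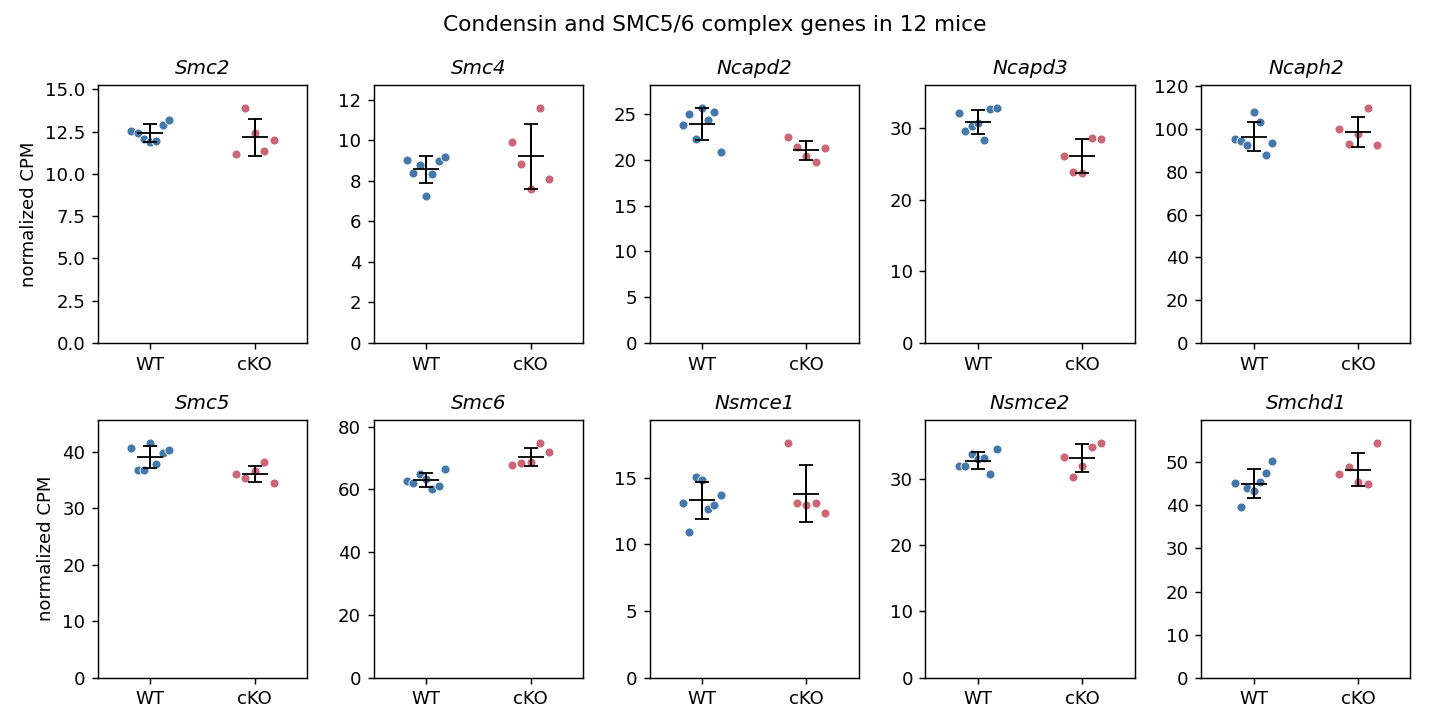
Normalized CPM of the 10 members (vertical axes, each from 0) in the 7 mice labelled WT (blue) and the 5 labelled cKO (red); points are mice, the black bar is the mean and the whiskers are 1 SD. Smc6 is the only panel whose groups do not overlap, with 60.1 to 66.6 CPM in WT and 67.8 to 74.8 CPM in cKO.

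Smc6 binds Smc5 to form the core of the SMC5/6 complex. In WT it ran from 60.1 CPM over a median of 62.7 to 66.6 CPM. In cKO it was at 67.8, 68.3, 68.8, 71.9 and 74.8 CPM. All 5 cKO mice lay above all 7 WT mice. The averages were 62.9 CPM (SD 2.24) and 70.3 CPM (SD 2.95), a rise of 11.8%. On the log2 scale limma put this at 0.16 (SE 0.04; adjusted p 0.0173), and the two-sided exact permutation test gave 0.00126, the smallest p that splits of 12 mice into 7 and 5 allow. The authors' deposited table has the same 0.16 on its log2 scale, with an FDR of 0.0687. With the thalamic marker score as a covariate the estimate was 0.14 (SE 0.05; limma adjusted p 0.105), in a fit where 5.85% of all genes were past the threshold. The score itself differed between the groups by -0.60 log2 units, cKO minus WT, and the SE was larger with it in the model. Precursor markers of oligodendrocytes, at 154 to 174 CPM in WT and 175 to 209.9 CPM in cKO, were separated in the same direction as Smc6, and their part in its rise was not tested.

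Smc5, the partner of Smc6, had the opposite sign and was not past the threshold. It ran from 36.8 CPM over a median of 39.8 to 41.5 CPM in WT. The cKO mice were at 34.4, 35.2, 36.0, 36.6 and 38.1 CPM. Of these, 4 lay below the lowest WT mouse and 1, cKO 13, inside the WT range. Smc5 averaged 39.1 CPM (SD 1.93) in WT and 36.1 CPM (SD 1.40) in cKO, for which limma estimated -0.11 log2 units (SE 0.04; adjusted p 0.101) and the exact permutation test gave a p of 0.0189. DESeq2 on recovered reads gave an adjusted p of 0.0486. With sample weights (arrayWeights) limma gave an adjusted p of 0.00362, in a fit that called 33.4% of all genes.

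The ratio of Smc6 to Smc5 within a mouse does not depend on how libraries are scaled. It was 1.52 to 1.76 with a median of 1.59 in the 7 WT mice. In the cKO mice it was 1.88 (cKO 12), 1.89 (cKO 8), 1.94 (cKO 9), 1.96 (cKO 13) and 2.09 (cKO 14). The highest WT ratio was thus below the lowest cKO ratio. The mean log2 ratio was 0.27 higher in cKO, and 0.25 to 0.30 higher when each mouse was left out in turn. No test is given, because the pair was chosen with the direction of both genes known.

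The other pairs of subunits examined overlapped between the groups. None of them holds Smc6, so they do not show whether its separation is particular to the pair with Smc5. For Smc4 to Smc2, the condensin ATPases, the ratio was 0.611 to 0.730 in WT and 0.613 to 1.02 in cKO, and the log2 difference of 0.13 was 0.01 without cKO 13. For Ncapd3 to Ncapd2, which mark condensin II and condensin I, it was 1.16 to 1.57 in WT and 1.12 to 1.45 in cKO. For Nsmce2 to Nsmce1 it was 2.23 to 2.91 in WT and 1.89 to 2.86 in cKO.

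**Figure D2:**
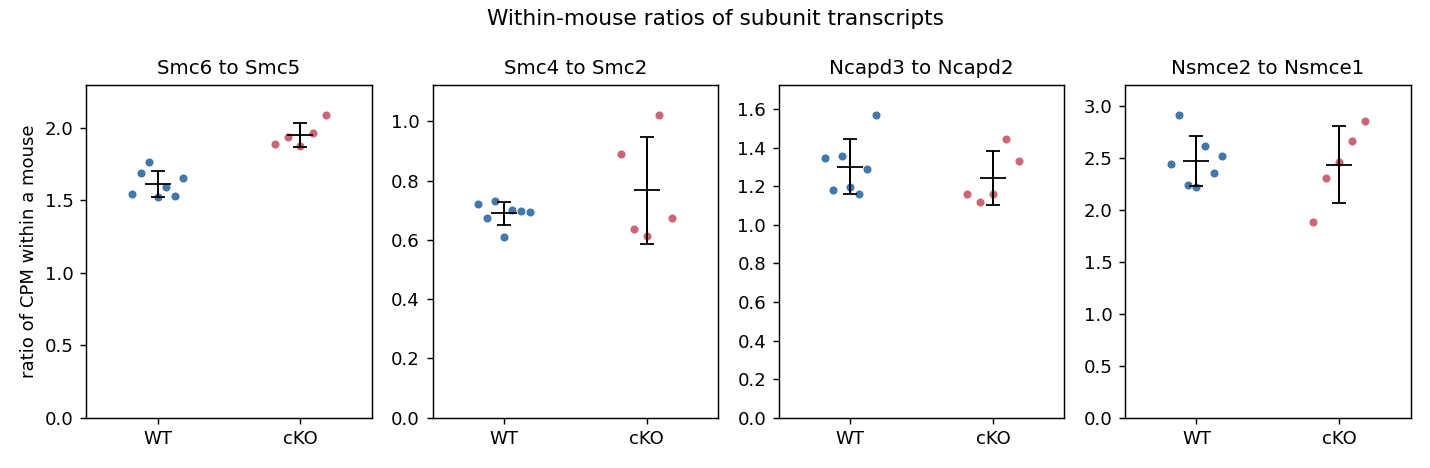
Ratio of the CPM values of 2 subunits in the same mouse (vertical axes, each from 0), for 4 pairs, in mice labelled WT (blue, n = 7) and cKO (red, n = 5), with mean and SD in black. The ratio of Smc6 to Smc5 is at most 1.76 in WT and at least 1.88 in cKO, and the other pairs overlap.

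The SMC5/6 subunits Nsmce1 and Nsmce2 were not past the threshold. Nsmce1, a RING-type subunit, averaged 13.3 CPM (SD 1.40) in WT and 13.8 CPM (SD 2.13) in cKO, and limma estimated 0.04 log2 units (SE 0.09; adjusted p 0.781). Its sign rested on cKO 8, at 17.6 CPM against 12.4 to 13.1 CPM in the other cKO mice: without that mouse the estimate was -0.04. Nsmce2, the SUMO ligase of the complex, averaged 32.7 CPM (SD 1.29) and 33.1 CPM (SD 2.10), an estimate of 0.02 (SE 0.05; limma adjusted p 0.849). The 95% interval of the change in CPM + 1 was -9.93% to 18.1% for Nsmce1 and -5.66% to 8.40% for Nsmce2.

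Ncapd3, a large HEAT-repeat subunit that marks condensin II, was lower. In WT it ran from 28.3 CPM over a median of 30.7 to 32.7 CPM. In cKO it was at 23.7, 23.9, 26.1, 28.5 and 28.6 CPM. The ranges overlapped only through WT 7, the lowest WT mouse, which lay below cKO 13 and cKO 14. From an average of 30.9 CPM (SD 1.67) in WT to 26.2 CPM (SD 2.37) in cKO it fell by 15.4%. The limma estimate was -0.24 log2 units (SE 0.06; adjusted p 0.0206), with an exact permutation p of 0.00379, and the authors' deposited table has -0.24 with an FDR of 0.0347. Without cKO 9 the limma adjusted p was 0.0521. Adding the thalamic score to the model gave an estimate of -0.21 with a larger SE of 0.08 (limma adjusted p 0.115).

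Ncapd2 is the corresponding subunit of condensin I, and its promoter above holds the cell cycle letters that the promoter of Ncapd3 lacks. It ran from 20.9 CPM over a median of 24.4 to 25.6 CPM in WT. It was at 19.8, 20.4, 21.4, 21.4 and 22.5 CPM in cKO. Of the WT mice 5 lay above the highest cKO mouse, and 2 cKO mice lay below the lowest WT mouse, WT 15. The limma estimate of -0.17 (SE 0.06) had an adjusted p of 0.0572, outside the threshold, and the exact permutation p was 0.0152. DESeq2 gave an adjusted p of 0.0323, and limma without WT 15 gave 0.0238 and without WT 5 0.0476. Ncapd2 also passed with arrayWeights (limma adjusted p 0.0217) and at a minimum of 5 CPM (0.0497). The estimate was -0.11 once the thalamic score was added (limma adjusted p 0.328) and -0.10 after correction for GC content and length (limma adjusted p 0.219).

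Smc2 and Smc4, the ATPase pair of both condensins, were not past the threshold. Smc2 averaged 12.4 CPM (SD 0.507) in WT and 12.2 CPM (SD 1.08) in cKO, a limma estimate of -0.03 (SE 0.06; adjusted p 0.762), with a 95% interval of -10.2% to 6.72% in CPM + 1. Smc4 averaged 8.57 CPM (SD 0.663) in WT, and the cKO mice were at 7.60, 8.11, 8.82, 9.94 and 11.6 CPM, a limma estimate of 0.08 (SE 0.09; adjusted p 0.570) with an interval of -7.45% to 21.3%. The highest of these, cKO 13 and cKO 8, lay above all WT mice, and without cKO 13 the estimate for Smc4 was 0.0049. The estimate for Smc2 was -0.08 without cKO 9 and -0.0029 without cKO 8. With arrayWeights the estimate for Smc2 was 0.02 and that for Smc4 -0.01.

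Ncaph2, the kleisin that closes the condensin II ring, averaged 96.4 CPM (SD 6.74) in WT and 98.5 CPM (SD 6.96) in cKO. The limma estimate was 0.03 (SE 0.06; adjusted p 0.755), with a 95% interval of -5.97% to 10.8% in CPM + 1. After correction for GC content and length the estimate was 0.09 (limma adjusted p 0.271). In the GENCODE M21 annotation, 19.7% of its exon bases are shared with Sco2 and 12.7% with Tymp, both on the opposite strand. Whether counting used strand is not given in the sources used here, so reads in those stretches cannot be told apart. As counted, Sco2 averaged 0.0420 CPM in WT and 0.0593 CPM in cKO, and Tymp 2.49 CPM and 2.16 CPM. Of the other members, Ncapd2 alone shared exon bases with genes of other names, 3.78% with the small RNA gene Scarna10 and 3.75% with Gm28967.

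Smchd1 ran from 39.7 CPM over a median of 45.2 to 50.2 CPM in WT. It was at 45.0, 45.5, 47.4, 48.9 and 54.4 CPM in cKO. The limma estimate was 0.10 (SE 0.06; adjusted p 0.291), with a 95% interval of -2.16% to 16.8% in CPM + 1. Without cKO 14, the highest mouse, the estimate was 0.05. Of 4 genes of the Prader-Willi cluster, which Smchd1 is known to help silence, 3 were tested. Of these, 0 had a limma adjusted p or unadjusted p under 0.05, and edgeR and DESeq2 called 0. The shares over all tested genes were 14.1% and 31.1% by limma, 13.7% by edgeR and 17.9% by DESeq2. The median log2 fold change of the 3 genes was -0.13. Ndn had an estimate of -0.13 (SE 0.17; limma adjusted p 0.640) and Magel2 one of -0.13 (SE 0.19; limma adjusted p 0.673), while Mkrn3 had the opposite sign at 0.03 (SE 0.12; limma adjusted p 0.892).

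**Figure D3:**
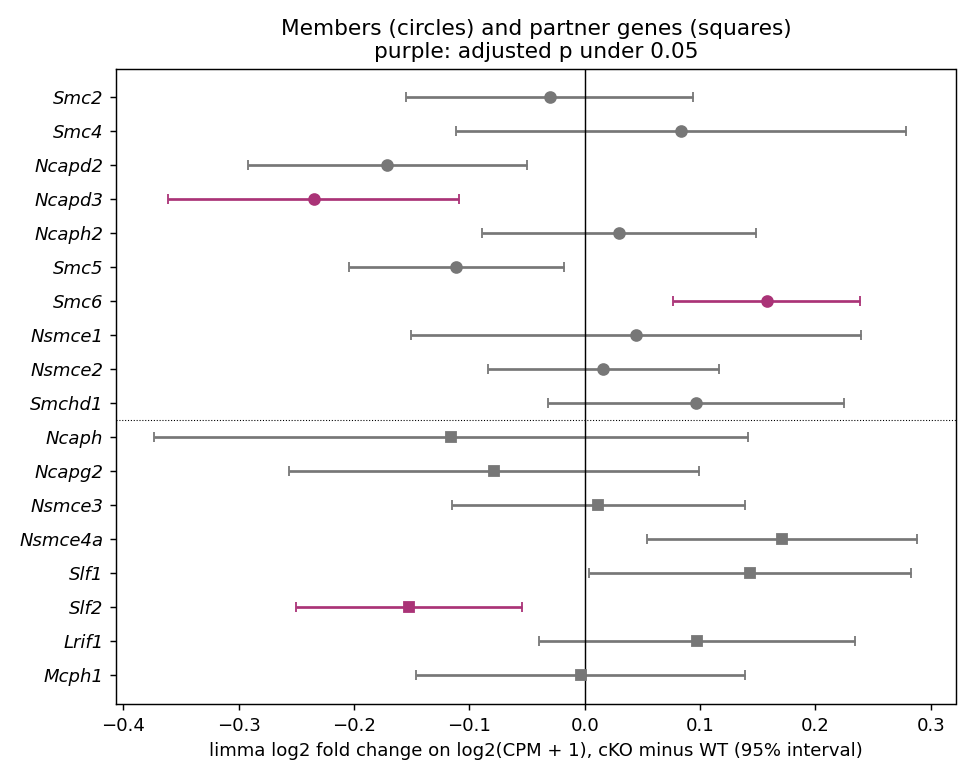
Limma log2 fold change on log2(CPM + 1), cKO minus WT (horizontal axis), with its 95% interval, for the 10 members (circles) and the 8 tested partner genes (squares). Smc6, Ncapd3 and Slf2, in purple for an adjusted p under 0.05, are at 0.16, -0.24 and -0.15.

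Further subunits and partners of these complexes formed a list of 10, of which 8 were tested. By limma 0 were higher, 1 was lower and 7 were not past the threshold, a share of 12.5% against 14.1% of all tested genes, and the median log2 fold change was 0.00. Slf2, which brings SMC5/6 to DNA, was the one past it. It ran from 65.8 to 77.3 CPM in WT and averaged 65.1 CPM (SD 1.99) in cKO, with cKO 8 highest at 68.1 CPM, a limma estimate of -0.15 (SE 0.05; adjusted p 0.0408). That call was lost in 8 of 12 fits without 1 mouse, those without WT 1, 6, 11 or 15 or without cKO 9, 12, 13 or 14, with adjusted p-values of 0.0616 to 0.0855. It was also lost with median centring (limma adjusted p 0.0584), quantile normalization (0.0538), all genes above 0 (0.0666), no trend (0.0570), the thalamic covariate (0.106) and the GC and length correction (0.0564). The estimates in the fits that lost it were -0.14 to -0.17.

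Nsmce4a, the kleisin of SMC5/6, was just outside the threshold. It ran from 29.2 to 33.8 CPM in WT, and 4 of 5 cKO mice, at 35.1, 35.8, 38.2 and 39.1 CPM, lay above that range. The limma estimate was 0.17 (SE 0.05; adjusted p 0.0515). It passed after median centring (limma adjusted p 0.0365), quantile normalization (0.0468), at a minimum of 5 CPM (0.0460), with arrayWeights (0.00394), by DESeq2 (0.0331), without cKO 12 (0.0208) and without WT 5 (0.0440). Correction for GC content and length lowered the estimate for Nsmce4a to 0.11 (limma adjusted p 0.124). Slf1, which works with Slf2, averaged 22.3 CPM (SD 1.41) in WT and 24.7 CPM (SD 2.50) in cKO, a limma estimate of 0.14 (SE 0.07; adjusted p 0.152). The Slf1 estimate was 0.10 without cKO 14, 0.24 with the thalamic covariate (limma adjusted p 0.0623) and 0.16 with arrayWeights (limma adjusted p 0.0286). Nsmce3, a MAGE-type subunit, had an estimate of 0.01 (SE 0.06; limma adjusted p 0.917). Eid3, a relative of Nsmce4a, was at 0.184 CPM in WT and 0.119 CPM in cKO, 1 to 12 reads per library, under the minimum for limma, with an exact permutation p of 0.283.

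None of the condensin partners tested was past the limma threshold. Ncaph, the kleisin of condensin I, averaged 1.21 CPM (SD 0.323) in WT and 1.03 CPM (SD 0.238) in cKO, 14 to 67 reads per library, a limma estimate of -0.12 (SE 0.12; adjusted p 0.549) that was -0.19 without WT 15 and -0.07 without cKO 8. Ncapg of condensin I was at 0.159 CPM and 0.247 CPM, 1 to 10 reads, under the minimum for limma, with an exact permutation p of 0.294. Ncapg2 of condensin II ran from 6.71 to 8.32 CPM in WT and from 5.83 to 8.44 CPM in cKO, a limma estimate of -0.08 (SE 0.08; adjusted p 0.556). That estimate was -0.02 without cKO 9, -0.13 without cKO 12 and -0.16 with arrayWeights. Mcph1, which restrains condensin II, ran from 15.5 to 20.01 CPM in WT and had an estimate of -0.0033 (SE 0.07; limma adjusted p 0.982). Lrif1, a partner of Smchd1, had one of 0.10 (SE 0.06; limma adjusted p 0.319), which was 0.06 without cKO 13 and 0.18 with the thalamic covariate (limma adjusted p 0.143).

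Levels of different genes were compared as CPM per kb of the longest GENCODE M21 transcript. In WT, Ncaph2 was highest at 29.2 (SD 2.04). Nsmce2 at 12.2 (SD 0.481), Nsmce1 at 11.9 (SD 1.25) and Smc6 at 11.2 (SD 0.400) followed, and their ranges overlapped. Next came Smc5 at 6.87 (SD 0.340), Smchd1 at 6.39 (SD 0.467), Ncapd3 at 5.62 (SD 0.304) and Ncapd2 at 5.16 (SD 0.374), where each overlapped its neighbour. Smc2 at 2.30 (SD 0.0939) and Smc4 at 1.99 (SD 0.154) were lowest, with ranges of 2.19 to 2.45 and 1.68 to 2.12 that did not overlap. Of 14515 tested genes with a length, 21.4% were below Smc2, 59.7% below Smc6 and 84.2% below Ncaph2. In cKO, Smc6 at 12.6 (SD 0.527) took the place after Ncaph2, and Smchd1 at 6.84 (SD 0.538) passed Smc5 at 6.35 (SD 0.247). The cKO ranges of Smc6, Nsmce2 and Nsmce1 overlapped, as did those of Smchd1 and Smc5. Such ranges leave out that the levels come from the same mice, and these changes of place were not tested. With the median transcript length of each gene in place of the longest, Smc6 came after Ncaph2 in WT and Ncapd3 came last, so the order holds for the longest transcripts.

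**Figure D4:**
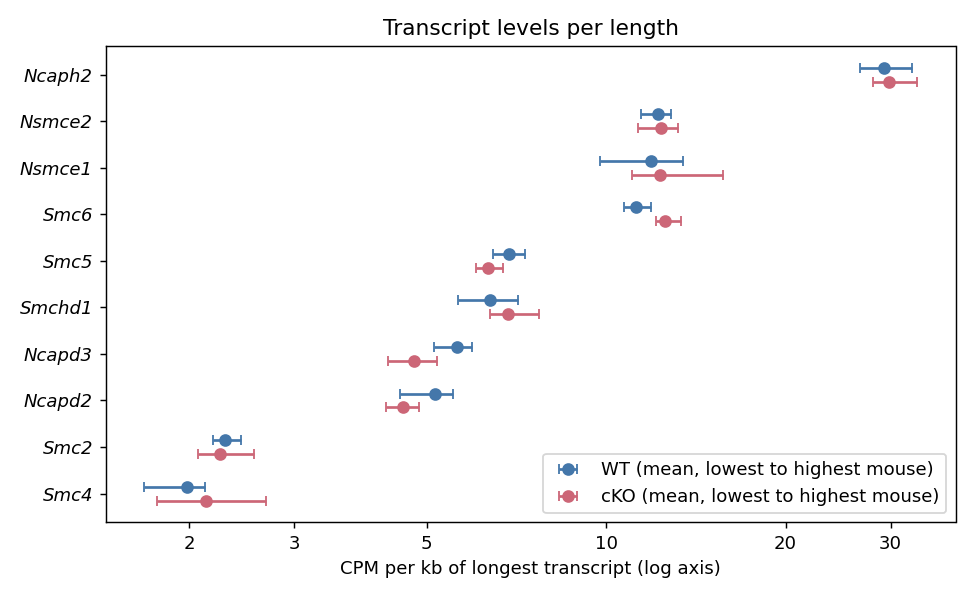
CPM per kb of the longest transcript (horizontal log axis) for the 10 members, as group means with whiskers from the lowest to the highest mouse, in mice labelled WT (blue, n = 7) and cKO (red, n = 5). In WT, Ncaph2 is highest at 29.2 and Smc4 lowest at 1.99.

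The spread between mice of a group was small for most members. The coefficient of variation was 3.56% (Smc6) to 10.5% (Nsmce1) in WT and 3.89% (Smc5) to 17.3% (Smc4) in cKO, and it was larger in cKO for 8 of 10 members and for 59.6% of all tested genes, a difference that was not tested. Counting error alone, as the mean of 1 over the root of the reads, came to 2.51% for Smc6, 5.47% for Nsmce1 and 6.82% for Smc4 in WT.

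Cell division, in which condensin acts, was read from 12 genes of dividing cells. Of these, 6 were under the minimum of 1 CPM. Of the 6 tested, 0 had a limma adjusted p or unadjusted p under 0.05, and edgeR and DESeq2 called 0. Among all tested genes the shares were 14.1% and 31.1% by limma, 13.7% by edgeR and 17.9% by DESeq2. Ccnb2, a cyclin of mitosis, had a limma estimate of 0.13 (SE 0.11; adjusted p 0.454), and Aurka, a mitotic kinase, one of -0.10 (SE 0.10; adjusted p 0.489). Among the 6 genes under the minimum, Mki67, the usual mark of dividing cells, is given because of its values: it averaged 0.428 CPM (SD 0.215) in WT and 0.781 CPM (SD 0.192) in cKO, at 0 to 42 reads per library. Of the cKO mice 4 lay above all WT mice, the exact permutation p was 0.0164, not adjusted over genes, and the authors' deposited table has an FDR of 0.163. The library with 0 reads of Mki67 was WT 7. The other 5 had exact permutation p-values of 0.138 (Top2a) to 0.893 (Cdk1). Their averages were lower in cKO for Ccnb1 and higher for Top2a, Cdk1, Aurkb and Bub1.

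DNA repair by SMC5/6 was set beside 12 target genes of p53, of which 11 were tested. By limma 1 was higher, 0 were lower and 10 were not past the threshold, a share of 9.09% against 14.1% of all tested genes. An unadjusted limma p under 0.05 was found for 4 of the 11, against 31.1% of all tested genes. Zmat3, an RNA-binding p53 target, averaged 94.5 CPM (SD 3.16) in WT and 104 CPM (SD 4.40) in cKO without overlap, a limma estimate of 0.14 (SE 0.04; adjusted p 0.0276).

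Of 16 SUMO pathway genes, all tested, 2 were higher, 0 lower and 14 not past the limma threshold, a share of 12.5% against 14.1% of all tested genes. edgeR called 2 and DESeq2 5, against 13.7% and 17.9% of all genes. Senp6, a protease that trims SUMO chains, averaged 87.6 CPM (SD 1.17) in WT and 94.2 CPM (SD 2.16) in cKO without overlap, a limma estimate of 0.10 (SE 0.03; adjusted p 0.0300). Sumo3, a SUMO protein, averaged 137 CPM (SD 8.48) and 155 CPM (SD 7.81), an estimate of 0.18 (SE 0.05; limma adjusted p 0.0307). The median log2 fold change was 0.07 over the 16 genes, against 0.01 over all tested genes.

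Cohesin is the nearest relative of these complexes, and Smc3 is its subunit. Of 10 other cohesin genes 3 were higher and 3 lower by limma, against 1 and 1 of the 10 members and 6.54% and 7.60% of all tested genes, and this difference between the lists was not tested. Smc1a, the partner of Smc3, averaged 112 CPM (SD 3.29) in WT and 123 CPM (SD 2.51) in cKO, a limma estimate of 0.13 (SE 0.03; adjusted p 0.0178). Stag1 had an estimate of 0.33 (SE 0.06; limma adjusted p 0.00478), Stag2 one of 0.19 (SE 0.04; limma adjusted p 0.0130) and the loader subunit Mau2 one of -0.16 (SE 0.04; limma adjusted p 0.0182).

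For the 2 members past the threshold, the genes with the most alike pattern over the 12 libraries were found by the root mean square difference of log2(CPM + 1), each gene centred on its own mean. For Smc6 these were Abcd3 at 0.03, Gps1 at 0.03 and Imp3 at 0.03 log2 units, where the median tested gene was at 0.15. For Ncapd3 they were 9330151L19Rik at 0.06, Mms19 at 0.07 and Donson at 0.07, where the median tested gene was at 0.20. These genes were picked as the nearest, so they lie below the median by selection. A gene with no variation would be at 0.09 from Smc6 and 0.15 from Ncapd3, their distances from their own means.

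**Figure D5:**
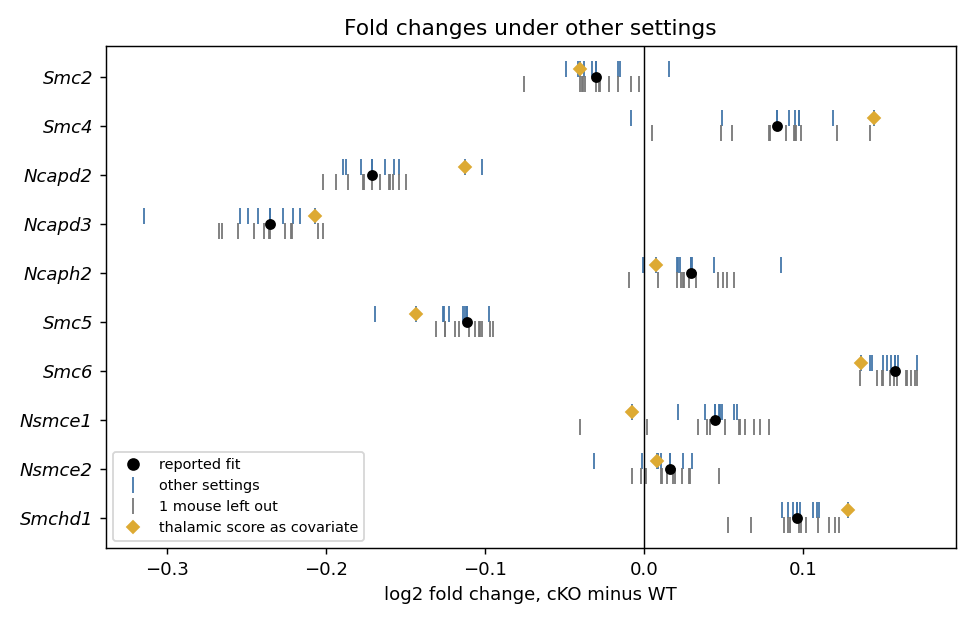
Log2 fold change, cKO minus WT (horizontal axis), of each member in the reported limma fit (black), under 11 other settings (blue ticks, the thalamic covariate as a yellow diamond) and in 12 fits that each omitted 1 mouse (grey ticks). Smc6 stays between 0.14 and 0.17 and Ncapd3 between -0.31 and -0.20, while values of Smc2, Smc4, Ncaph2, Nsmce1 and Nsmce2 lie on both sides of 0.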

How the data were processed

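Messenger RNA from the hypothalamus of 12 mice was sequenced. The authors deposited normalized CPM for 32494 genes and the table of their own test, with log2 fold changes, p-values and FDR. The submitters' processing notes name bcl2fastq, FastQC 0.11.9, STAR 2.7.9a, SAMtools, Subread and featureCounts. Genome build, annotation and strand setting are not given in the sources used here. The deposited CPM values came out as whole multiples of 1 step per library, within 0.001 reads, for 100% of values, so reads were recovered from them. Libraries of a group differed by a chi-square of 3.04 to 26.3 per degree of freedom over 31 pairs, and each was counted as 1 sample.

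The test was limma 3.58.1 (R 4.3.3; lmFit, eBayes with a trend) on log2(CPM + 1), with no covariate and a filter at a mean of 1 CPM. The pseudocount of 1 understates changes of low genes. Single genes were also compared by a two-sided exact permutation test over mice. Alternatives were median centring, quantile normalization, a pseudocount of 0.1, all genes above 0, a filter at 5 CPM, eBayes with no trend, arrayWeights, edgeR 4.0.16 (quasi-likelihood) and DESeq2 1.42.0 on recovered reads, a thalamic marker score as covariate, a GC and length correction (splines of 4 degrees of freedom; 94.5% of tested genes have a length), and each mouse left out. The fits were tested on simulated data whose planted changes were larger than those of the members. That test does not show how the fits perform at changes as small as those reported here. Lengths and overlaps come from GENCODE M21, which may not be the annotation used for counting.

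The members, lists and tests were chosen with earlier results of these data known. The text names all members and partners and, of each other list, up to 4 genes past the threshold by smallest p, or otherwise the 2 smallest, and the 3 genes most alike to each member past the threshold. Mki67, Top2a, Cdk1, Ccnb1, Aurkb, Bub1, Mkrn3, marker genes past the threshold and genes sharing exon bases were named after their values were seen.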

Additional observations from a re-analysis of the deposited data

Results flagged for a closer look

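Among 52 groups of 5 or 7 values, 5 held 1 mouse far from the others of its group by Dixon's test, where chance gives 2.6, about 1 in 20. Smc4 was at 7.25 CPM in WT 6, and the next lowest WT mouse was at 8.35 CPM. Nsmce1 was at 17.6 CPM in cKO 8, and the next cKO mouse was at 13.1 CPM. Ncapg was at 0.465 CPM in WT 5, with the next WT mouse at 0.134 CPM. Eid3 was at 0.403 CPM in WT 6, with the next at 0.207 CPM. Depth was 68.7 M reads in WT 1, and the next WT library had 24.0 M.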

How the results depend on the processing

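No paired analysis was possible because the groups share no mouse number. Smc3 was past the limma, edgeR and DESeq2 threshold under every alternative (0.64 to 0.74). Of 230 values for the members, 210 kept direction and side of the threshold, 3 lost it, 7 gained it and 10 reversed; the cause was not tested. Over all genes, 5126 were past the threshold with arrayWeights, 898 with the thalamic covariate, and 1158 (without WT 1) to 2302 (without WT 5) with 1 mouse left out. Of the genes called, 1377 were higher and 1054 lower after median centring, and 1318 higher and 862 lower after GC and length correction, against 1004 and 1168. Members past the threshold numbered 3 at a filter of 5 CPM, 4 with arrayWeights and 4 with DESeq2. They numbered 0 with the thalamic covariate (3 at an unadjusted p under 0.05). With 1 mouse left out they numbered 1 (without cKO 9) to 3. Partners past it numbered 2 at a filter of 5 CPM, 3 with arrayWeights, 2 with DESeq2, and 0 with all genes above 0, no trend, the thalamic covariate or GC correction (3, 3, 4 and 2 at an unadjusted p under 0.05), and 0 to 2 with 1 mouse left out. Log2 fold changes that reversed were, with arrayWeights, Smc2 0.016, Smc4 -0.0081, Ncaph2 -0.00074, Nsmce2 -0.0013 and Ncaph 0.031; with the thalamic covariate, Nsmce1 -0.0074 and Ncaph 0.027; with GC correction, Nsmce2 -0.032 and Mcph1 0.028; with quantile normalization, Ncaph 0.0094 and Mcph1 0.0021; and with median centring, Mcph1 0.011. With 1 mouse left out, estimates that changed sign spanned -0.0092 to 0.057 for Ncaph2, -0.040 to 0.078 for Nsmce1, -0.0074 to 0.047 for Nsmce2, -0.025 to 0.050 for Nsmce3 and -0.036 to 0.022 for Mcph1. The log2 ratio of Smc4 to Smc2 was 0.01 without cKO 13. The highest level per kb was 14.7 times the lowest, and 18.2 times with median transcript lengths. Depth limits genes under 1 CPM, such as Ncapg and Eid3 at 1 to 12 reads per library.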
